A study of Mus musculus with 8 samples.

Results

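Here 10 genes were followed in adipocyte precursors (APs), the mesenchymal cells of the skin that can become fat cells. They are the CCN matricellular genes Cyr61, Ctgf, Nov, Wisp1 and Wisp2, the transcriptional effectors Yap1, Wwtr1 and Tead1, and the YAP-responsive genes Ankrd1 and Amotl2. Every row of the deposited isoform table that carries 1 of these 10 symbols was taken, which gave 14 isoforms of the 34535 in the table, out of 24356 gene symbols. Of these 14 isoforms 12 were tested by the authors, in 9 of the 10 genes. The 2 groups were APs of wound beds at day 5 (2 samples) and APs of nonwounded dorsal skin (6 samples). All were isolated by FACS from dermis, and the mice were male C57/Bl6 of 7 weeks. The labels name no transgene, genotype or treatment other than wounding, and do not say whether samples came from separate animals, so the p-values measure the spread between these samples, which may be technical. The table gives a single FPKM per isoform and group (fragments scaled to transcript length and to sequencing depth), so neither an SD nor a value per sample can be given, and how deeply each sample was sequenced is unknown. Pdgfra, Cd34 and Ly6a, genes commonly used to define these precursors, stood, summed over their isoforms, at 91.8, 679 and 1576 FPKM in wound-bed APs and 80.9, 1104 and 2691 in nonwounded APs.

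CCN proteins are secreted, cysteine-rich proteins that sit in the extracellular matrix and act on cells mainly through integrins and heparan sulfate proteoglycans. YAP and TAZ are coactivators with no DNA-binding domain of their own. They bind TEAD factors on DNA when they are in the nucleus, and the LATS kinases of the Hippo pathway keep them in the cytoplasm by phosphorylation. In fibroblasts, stretch, stiff matrix and wounding are known settings for this pathway, and Cyr61, Ctgf, Ankrd1 and Amotl2 are textbook target genes. The table measures RNA, so it holds nothing on where the YAP and TAZ proteins were.

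The question was which transcripts of these genes differ after wounding. Of the 5 CCN genes 4 rose in wound-bed APs, whereas Cyr61, the most abundant, did not pass the test. Tead1 rose and Amotl2 fell, and no isoform of Yap1 or Wwtr1 passed. In all, 5 of the 12 tested member isoforms were called higher and 1 was called lower (adjusted p under 0.05, Benjamini-Hochberg, p-values of the authors' deposited table), where 5.66% and 7.25% of all 17775 tested isoforms were called higher and lower (12.9% in either direction). An unadjusted p under 0.05 was reached by 8 of the 12. The share of all tested isoforms under that unadjusted threshold is not given here. It is larger than 12.9%, so unadjusted counts, here and below, cannot be read against the adjusted shares. Tead1 no longer passed with an adjusted p threshold of 0.01, and neither Tead1 nor Amotl2 passed where a log2 size of at least 1 was also asked for. The median log2 fold change of the 9 tested genes, each taken by its major isoform (the tested isoform with the highest sum of both FPKM), was 0.90, against -0.13 over all major isoforms that reached 1 FPKM in either group. The genes were chosen with earlier results of these data known, so these counts describe the genes and do not set them apart from others.

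**Figure D1:**
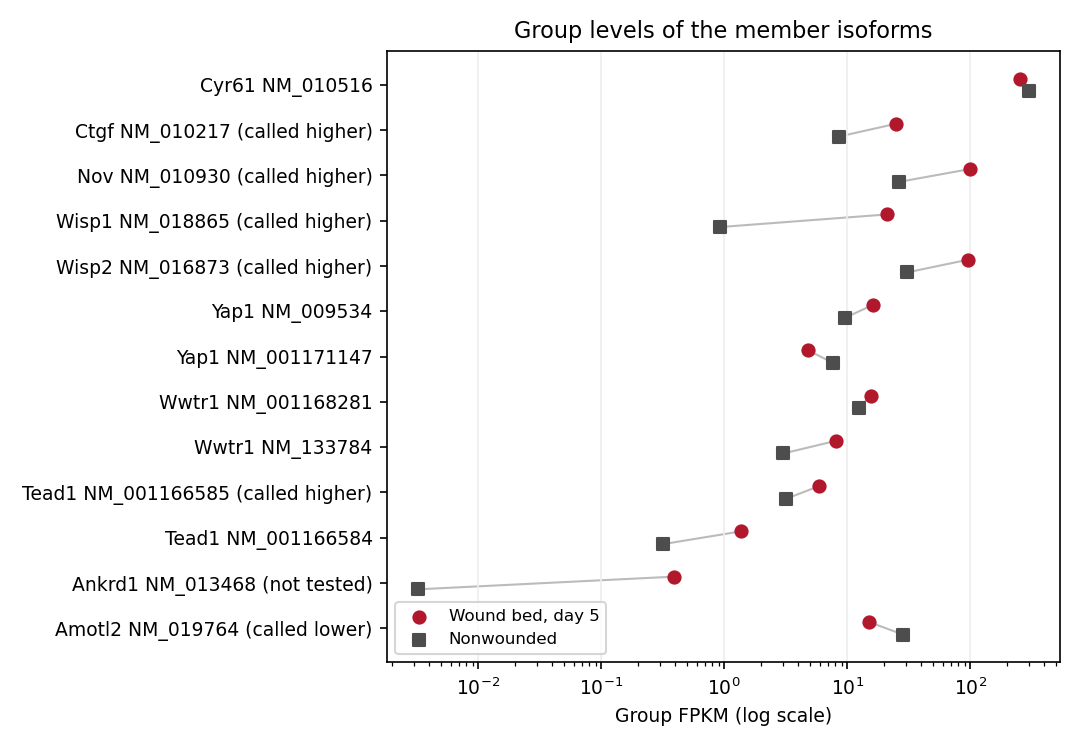
Group FPKM on a log axis for 13 isoforms of the 10 genes, with circles for the wound bed and squares for nonwounded skin, 1 value per group and no error bar since the table holds none. Cyr61 has the highest values (254 for the wound bed, 302 for nonwounded skin), Wisp1 shows the widest gap among tested isoforms (21.2 for the wound bed, 0.916 for nonwounded skin), and Ankrd1 was not tested.

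The positions that follow are those of the table, which match GRCm38 for these genes although the processing notes name mm9. Wisp1 (chr15:66891393-66923199), now named Ccn4, encodes a matricellular protein first described as a Wnt-inducible product. Its transcripts reached 21.2 FPKM in wound-bed APs and 0.916 in nonwounded APs, 23.2-fold higher. The log2 fold change was 4.53, with an adjusted p of 0.000882 (Benjamini-Hochberg, from the authors' deposited table). Wisp1 thus ranked 15494th of 17775 tested isoforms by level in nonwounded APs and 2785th in wound-bed APs. Its change was the 275th highest among 17022 isoforms with both values above 0. Because its nonwounded level is low, the log2 fold change depends on the pseudocount and was 3.54 with a pseudocount of 1.

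Nov (chr15:54745928-54753761), now Ccn3, and Wisp2 (chr2:163820834-163833147), now Ccn5, were the most abundant CCN genes after Cyr61 in both groups. Nov, whose product binds integrins and has been described as a counterweight to Ctgf, stood at 99.0 FPKM in wound-bed APs and 26.6 in nonwounded APs (log2 fold change 1.89, adjusted p = 0.000882 from the authors' deposited table, Benjamini-Hochberg). Wisp2, which encodes the CCN protein that lacks the C-terminal cystine knot module, stood at 96.4 in wound-bed APs and 30.8 in nonwounded APs (log2 fold change 1.64, with the same adjusted p). The levels of these 2 genes lay close to each other within each group, and whether they differed cannot be tested without values per sample.

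Ctgf (chr10:24595442-24598682), now Ccn2, encodes connective tissue growth factor, a fibrosis-associated protein induced by TGF-beta and by YAP. It stood at 24.8 FPKM in wound-bed APs and 8.60 in nonwounded APs, a rise of 1.53 on the log2 scale with the same adjusted p of 0.000882 from the authors' deposited table. This adjusted p is the smallest the table allows, since 1008 isoforms share the lowest deposited p of 5e-05, so it does not order these 4 genes by strength. Cyr61 (chr3:145646971-145649985), now Ccn1, is an immediate early gene and, like Ctgf, a classical YAP target. It stood at 254 FPKM in wound-bed APs and 302 in nonwounded APs, with a log2 fold change of -0.25 and an adjusted p of 0.542 (Benjamini-Hochberg, from the authors' deposited table). Among tested isoforms Cyr61 ranked 311th by level in wound-bed APs and 258th in nonwounded APs. Ctgf and Cyr61 thus had different outcomes in the same comparison, although the difference between their changes was not tested. The sixth gene of the family, Wisp3, was at 0.0439 FPKM in wound-bed APs and 0.0607 in nonwounded APs and was not tested.

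Because FPKM is scaled to length, the 5 genes can be added. Their sum was 496 FPKM in wound-bed APs and 369 in nonwounded APs, 1.34-fold higher. Without Cyr61 the sum was 241 in wound-bed APs and 67.0 in nonwounded APs, 3.60-fold higher. Cyr61 made up 51.3% of CCN transcripts in wound-bed APs and 81.9% in nonwounded APs. In wound-bed APs Nov made up 20.0%, Wisp2 19.4%, Ctgf 5.00% and Wisp1 4.28%. In nonwounded APs the shares were 7.21% for Nov, 8.36% for Wisp2, 2.33% for Ctgf and 0.248% for Wisp1. These shares carry no test.

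**Figure D2:**
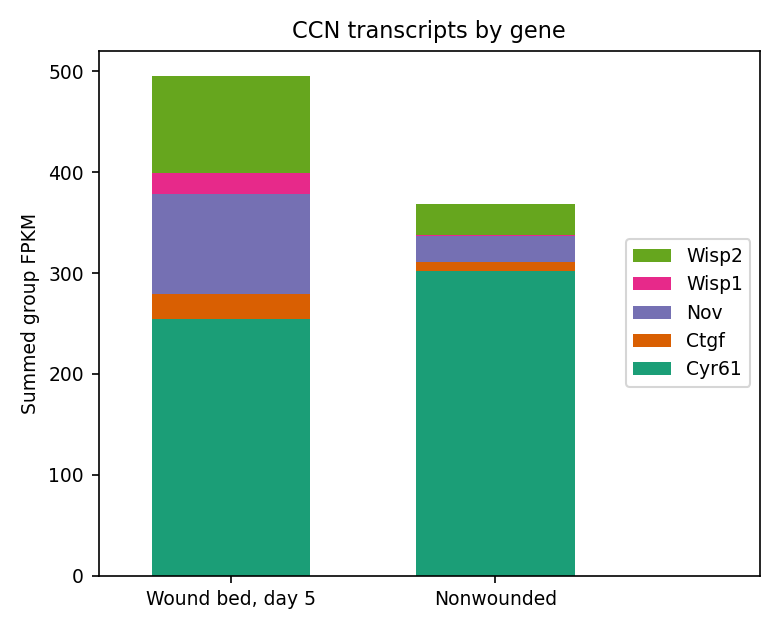
Summed group FPKM of the 5 CCN genes (vertical axis from 0) in both groups of APs, stacked by gene, 1 value per group without error bars. The Cyr61 block is of like height in both bars (254 in the wound bed, 302 in nonwounded skin), and the other 4 genes together add 241 in wound-bed APs and 67.0 in nonwounded APs.

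Yap1 (chr9:7932001-8004596), which encodes YAP, has 2 isoforms in the table. The isoform NM_009534 stood at 16.2 FPKM in wound-bed APs and 9.66 in nonwounded APs, with a log2 fold change of 0.74 that was not called (adjusted p = 0.118, Benjamini-Hochberg, from the authors' deposited table). The isoform NM_001171147 pointed the other way, with 4.79 FPKM in wound-bed APs and 7.66 in nonwounded APs, a log2 fold change of -0.68 and an adjusted p of 0.416 from the same table. The sum of both was 20.9 in wound-bed APs and 17.3 in nonwounded APs, a log2 ratio of 0.27. In GENCODE M21, matched through its RefSeq table, NM_001171147 contains a coding exon of 48 bases, or 16 codons, that NM_009534 lacks. It lies at chr9:7950492-7950539 on the minus strand (GRCm38). The isoform without this exon made up 77.1% of Yap1 FPKM in wound-bed APs and 55.8% in nonwounded APs. This shift in share was not tested, and neither isoform was called. The exon is shown in capitals between the 12 bases of its spliced neighbours on each side, since it is the only coding sequence in which these isoforms differ.
Yap1 exon of NM_001171147: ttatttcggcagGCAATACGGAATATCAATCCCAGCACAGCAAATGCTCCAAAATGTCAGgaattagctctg

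Wwtr1 (chr3:57455644-57575910) encodes TAZ, the paralog of YAP. Its isoform NM_001168281 stood at 15.5 FPKM in wound-bed APs and 12.4 in nonwounded APs (log2 fold change 0.33, adjusted p = 0.477, Benjamini-Hochberg, from the authors' deposited table). The isoform NM_133784 stood at 8.11 in wound-bed APs and 3.01 in nonwounded APs, with a log2 fold change of 1.43 and an adjusted p of 0.152 from the same table. Summed, Wwtr1 was at 23.7 in wound-bed APs and 15.4 in nonwounded APs, a log2 ratio of 0.62. The annotated coding sequence starts further upstream in NM_001168281, with 1356 coding bases, than in NM_133784, with 1185. NM_133784 made up 34.3% of Wwtr1 FPKM in wound-bed APs and 19.6% in nonwounded APs, again without a test. In both groups the summed levels of Yap1 and Wwtr1 were of similar size.

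Tead1 (chr7:112679320-112906805) encodes a DNA-binding partner of YAP and TAZ. Its major isoform NM_001166585 rose, with 5.92 FPKM in wound-bed APs and 3.18 in nonwounded APs, a log2 fold change of 0.90 and an adjusted p of 0.0257 (Benjamini-Hochberg, from the authors' deposited table). The isoform NM_001166584 stood at 1.36 in wound-bed APs and 0.320 in nonwounded APs, with a log2 fold change of 2.09 and an adjusted p of 0.325 from the same table. The third, NM_009346, was under 0.001 in both groups and was not tested. In its coding sequence, NM_001166584 differs from the called isoform by 2 added exons. They are of 63 bases at chr7:112841888-112841950 and of 12 bases at chr7:112856053-112856064 (GRCm38, plus strand). Both are shown in capitals with 12 bases of the spliced transcript on each side because the coding sequences of these 2 isoforms are told apart by them. The 2 transcripts also differ outside the coding sequence, with 14 and 11 annotated exons.
Tead1 exon of 63 bases: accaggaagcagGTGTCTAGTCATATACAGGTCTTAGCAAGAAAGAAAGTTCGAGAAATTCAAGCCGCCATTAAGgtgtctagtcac
Tead1 exon of 12 bases: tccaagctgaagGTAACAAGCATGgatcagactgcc

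**Figure D3:**
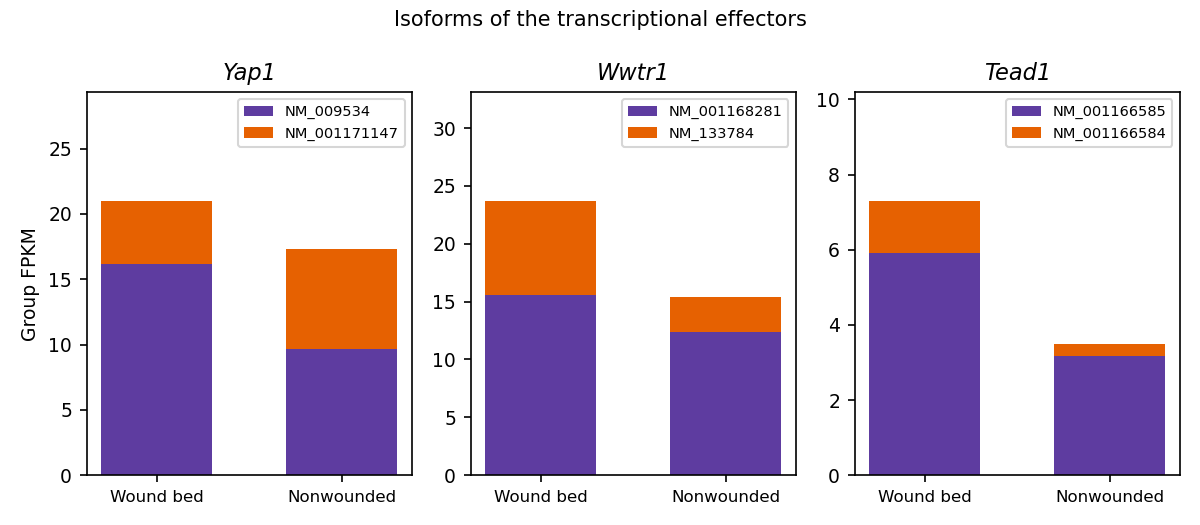
Group FPKM (vertical axes from 0, each with its own scale) of the isoforms of Yap1, Wwtr1 and Tead1 in both groups of APs, stacked, 1 value per group without error bars. For Yap1 the NM_001171147 block is smaller in wound-bed APs (4.79) than in nonwounded APs (7.66), and the other blocks are larger in wound-bed APs.

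Amotl2 (chr9:102717804-102733417) encodes an angiomotin-like scaffold that binds YAP at cell junctions and holds it out of the nucleus, and it is itself a YAP target. It was the only member called lower, with 15.0 FPKM in wound-bed APs and 28.6 in nonwounded APs. The log2 fold change was -0.93 and the adjusted p 0.00608 (Benjamini-Hochberg, from the authors' deposited table), so Amotl2 moved against Ctgf. Ankrd1 (chr19:36111965-36119844) encodes an ankyrin repeat protein of striated muscle that is also induced by YAP in cultured cells. It stood at 0.388 FPKM in wound-bed APs and 0.00321 in nonwounded APs and was not tested. At these levels its log2 ratio depends on the pseudocount and is given only among the alternatives below. By summed FPKM the order of the 10 genes was Cyr61, Nov, Wisp2, Ctgf, Wwtr1, Wisp1, Yap1, Amotl2, Tead1 and Ankrd1 in wound-bed APs, and Cyr61, Wisp2, Amotl2, Nov, Yap1, Wwtr1, Ctgf, Tead1, Wisp1 and Ankrd1 in nonwounded APs. Without a spread, neighbours in these orders cannot be said to differ.

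**Figure D4:**
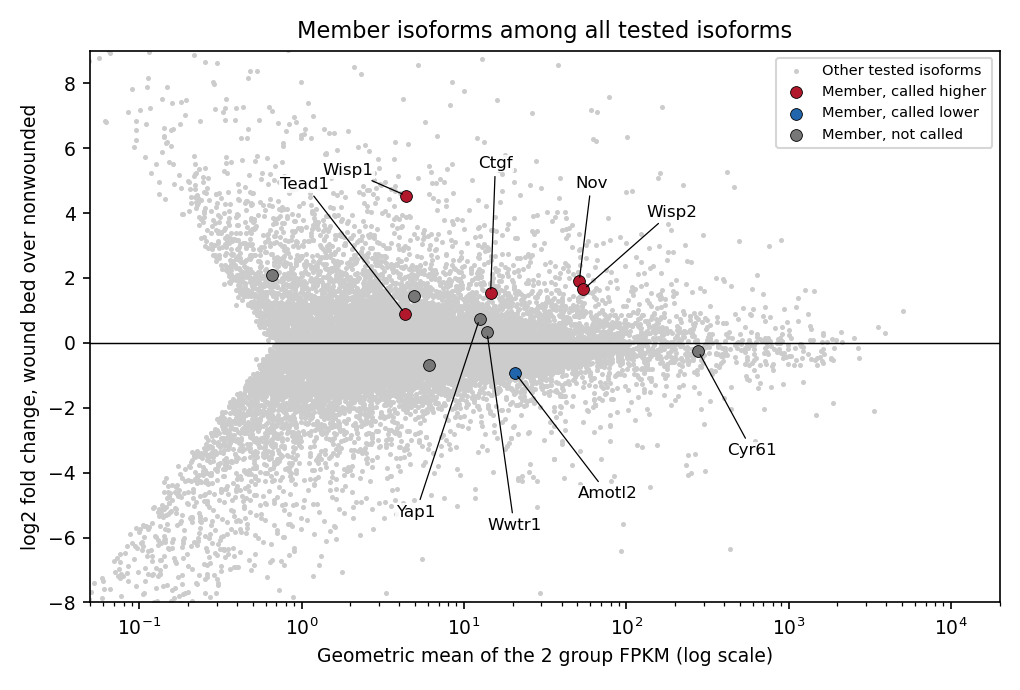
Log2 fold change (wound bed over nonwounded, vertical axis) against the geometric mean of the group FPKM (horizontal log axis), with grey points for tested isoforms that have both values above 0 (those beyond the axes are not drawn) and large points for member isoforms, named at the major isoform. Wisp1 (4.53) lies above the other members, Nov, Wisp2 and Ctgf between 1.53 and 1.89, and Amotl2 (-0.93) below the line.

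Promoter windows of RefSeq (GRCm38.p6, 250 bases before to 50 after the annotated start) matched 5 of the 10 genes, namely Cyr61, Yap1, Wwtr1, Ankrd1 and Amotl2. Ctgf, Nov, Wisp1, Wisp2 and Tead1 had no window. The windows are shown because each of the 5 holds the core letters of the TEAD site, GGAATG or its reverse complement CATTCC, in capitals below, although the genes had different outcomes in the comparison. Both strands were searched, and 14.7% of all 32851 promoter windows hold these letters. The genes had been chosen in part as known YAP targets, so the count is a description of them. The match lies at -103 to -98 from the start in Cyr61 (chr3:145649936-145650235, minus strand), which was not called, and at -65 to -60 in Amotl2 (chr9:102717554-102717853, plus strand), which was called lower. Ankrd1 (chr19:36119795-36120094, minus strand), at most 0.388 FPKM, has 2 matches, at -210 to -205 and at -123 to -118. Yap1 (chr9:8004547-8004846, minus strand) has a match at -141 to -136 and Wwtr1 (chr3:57575861-57576160, minus strand, the upstream of its 2 annotated starts) at -136 to -131, and neither was called. A match is a string of letters and not a shown binding site. None of the 5 windows holds the AP-1 letters TGANTCA (7.81% of all windows) or a CArG box, the element bound by SRF (1.63% of all windows).
Cyr61 promoter: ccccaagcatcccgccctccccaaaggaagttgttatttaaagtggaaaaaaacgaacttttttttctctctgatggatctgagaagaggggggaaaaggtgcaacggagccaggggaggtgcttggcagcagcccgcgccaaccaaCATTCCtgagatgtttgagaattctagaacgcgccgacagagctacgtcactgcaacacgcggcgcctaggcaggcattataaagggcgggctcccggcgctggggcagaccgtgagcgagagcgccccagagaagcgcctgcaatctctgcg
Amotl2 promoter: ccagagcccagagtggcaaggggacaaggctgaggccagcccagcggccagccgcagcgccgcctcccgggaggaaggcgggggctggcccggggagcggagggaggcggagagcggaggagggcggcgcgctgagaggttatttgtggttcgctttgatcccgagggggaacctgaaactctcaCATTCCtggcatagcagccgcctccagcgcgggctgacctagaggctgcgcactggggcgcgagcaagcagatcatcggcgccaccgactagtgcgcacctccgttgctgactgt
Ankrd1 promoter: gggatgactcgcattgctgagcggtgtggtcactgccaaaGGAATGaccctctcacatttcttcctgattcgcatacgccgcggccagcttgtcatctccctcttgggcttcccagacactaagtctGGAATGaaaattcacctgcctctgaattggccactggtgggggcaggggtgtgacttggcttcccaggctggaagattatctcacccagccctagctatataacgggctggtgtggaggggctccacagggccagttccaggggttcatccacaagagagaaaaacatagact
Yap1 promoter: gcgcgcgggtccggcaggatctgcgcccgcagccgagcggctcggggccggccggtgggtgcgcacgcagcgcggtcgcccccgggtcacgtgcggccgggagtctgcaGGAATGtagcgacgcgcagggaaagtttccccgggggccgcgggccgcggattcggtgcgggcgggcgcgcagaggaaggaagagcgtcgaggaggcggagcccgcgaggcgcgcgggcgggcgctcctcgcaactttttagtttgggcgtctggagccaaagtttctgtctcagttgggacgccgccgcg
Wwtr1 promoter: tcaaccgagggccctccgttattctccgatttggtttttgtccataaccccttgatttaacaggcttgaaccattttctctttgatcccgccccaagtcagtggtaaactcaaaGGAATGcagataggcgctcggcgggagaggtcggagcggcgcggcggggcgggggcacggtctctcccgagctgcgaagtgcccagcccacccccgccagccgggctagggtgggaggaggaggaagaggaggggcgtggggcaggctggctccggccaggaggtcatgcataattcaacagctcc

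The rest of the pathway was read from gene lists, each gene by its major isoform where this reached 1 FPKM in either group. Over all 12960 such isoforms 7.39% were called higher and 8.7% lower. Among the other genes of the YAP, TAZ and TEAD family and its cofactors, 0 of 4 were called by the adjusted p of Cuffdiff in the authors' deposited table, and 2 of 4 were higher at an unadjusted p under 0.05. Tead2 stood at 6.10 FPKM in wound-bed APs and 6.61 in nonwounded APs, and Tead3 at 9.18 in wound-bed APs and 6.33 in nonwounded APs. Vgll3, a TEAD cofactor gene, stood at 17.2 in wound-bed APs and 11.2 in nonwounded APs. Vgll4, which encodes a cofactor that competes with YAP for TEAD, stood at 13.0 in wound-bed APs and 4.88 in nonwounded APs, with an adjusted p of 0.0773 (Benjamini-Hochberg, from the authors' deposited table). Tead4, Vgll1 and Vgll2 were not tested, with sums over isoforms of 0.0503 FPKM in wound-bed APs and 0.0615 in nonwounded APs for Tead4, 0.116 in wound-bed and 0.0426 in nonwounded APs for Vgll2, and a listed 0 in wound-bed and 0.00810 in nonwounded APs for Vgll1.

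In the list of Hippo kinases and upstream regulators, 3 of 24 genes other than Amotl2 were called higher and 1 lower (9 and 2 at an unadjusted p under 0.05), with a median log2 fold change of 0.42. Map4k4 was not called by its major isoform, but another of its isoforms was (adjusted p = 0.000882, Benjamini-Hochberg, from the authors' deposited table). Summed over isoforms, Map4k4 stood at 48.0 FPKM in wound-bed APs and 25.3 in nonwounded APs. Ptpn14, a phosphatase gene whose product binds YAP, rose by 1.29 on the log2 scale, Rassf1, a scaffold gene of the Hippo kinases, by 1.14, and Mob1a, which encodes a LATS coactivator, by 1.07. Ptpn14 was low, at 2.11 FPKM in wound-bed APs and 0.866 in nonwounded APs. Fat4, the gene of a giant protocadherin, fell by 1.20. The LATS kinase genes Lats1 and Lats2 had log2 fold changes of 0.01 and -0.01 without a call.

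The YAP target signature, a published set of 22 human genes taken here by their mouse symbols, had 5 of 17 genes other than the members called higher and 3 called lower, with a median log2 fold change of 0.07. Dock5, a guanine nucleotide exchange factor gene, rose by 3.39, Gadd45a, a stress response gene, by 2.67, F3, the tissue factor gene, by 1.57 and Myof, a membrane repair gene, by 1.32. Dock5 was low in both groups, at 1.35 FPKM in wound-bed APs and 0.129 in nonwounded APs. Igfbp3, which encodes an IGF carrier, fell by 3.76, Axl, a receptor tyrosine kinase gene, by 1.29 and Nt5e, the gene of the ectonucleotidase CD73, by 0.84. Together with Ctgf higher and Amotl2 lower, the targets did not move one way.

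Among receptors and partners of CCN proteins, 6 of 15 genes were called higher and 0 lower (adjusted p under 0.05 from Cuffdiff in the authors' deposited table, with 8 higher and 0 lower at an unadjusted p under 0.05), with a median of 0.84. Bgn, the gene of the small proteoglycan biglycan, rose by 3.16 on the log2 scale to 2695 FPKM in wound-bed APs, against 301 in nonwounded APs. Notch1, a receptor gene whose product binds the Nov protein, rose by 2.37 at low levels (1.62 FPKM in wound-bed APs and 0.312 in nonwounded APs). The leukocyte integrin genes Itgb2 and Itgam rose by 2.41 and 2.33. The remaining 2, named after their values were seen, were Itga5, which encodes the fibronectin receptor subunit (2.11), and Sdc4, which encodes the proteoglycan syndecan 4 (1.55). Itgav, Itgb3 and Itgb5, genes of vitronectin receptor subunits that bind Cyr61 and Ctgf proteins, had values of 0.33, 0.35 and 0.17 without a call.

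Lists of SRF and MRTF genes, TGF-beta genes and early response genes held more higher than lower calls. Whether these genes are linked to the CCN values was not tested. Of genes linked to SRF and its MRTF cofactors, 5 of 14 were called higher and 1 lower, with a median of 1.01. Tpm2 rose by 4.42 (1.77 for the sum of its isoforms), Acta2 by 4.21, Tagln by 3.03 and Vcl, the vinculin gene, by 1.32, and Myl9 fell by 1.63, all on the log2 scale. Of TGF-beta genes and genes it induces, 5 of 10 were called higher and 0 lower (6 and 0 at an unadjusted p under 0.05), with a median of 1.25, and Col1a1 and Col1a2 had no usable value. Skil was not called by its major isoform, but another of its isoforms was (adjusted p = 0.0110, Benjamini-Hochberg, from the authors' deposited table). Summed over isoforms, Skil stood at 15.8 FPKM in wound-bed APs and 2.91 in nonwounded APs. Tgfb1 rose by 2.92, Smad7, a feedback inhibitor gene, by 2.57 and Ltbp2, a matrix gene of the latent TGF-beta binding family, by 1.74 on the log2 scale. Of 18 genes induced early by stimuli or by tissue dissociation, 11 were called higher and 0 lower (15 and 0 at an unadjusted p under 0.05), with a median of 2.84, among them Ier3 (6.27), Egr2 (6.19), Nr4a1 (5.08) and Atf3 (3.65). Cyr61, which shares the immediate early mode of induction, had -0.25 in the same columns.

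**Figure D5:**
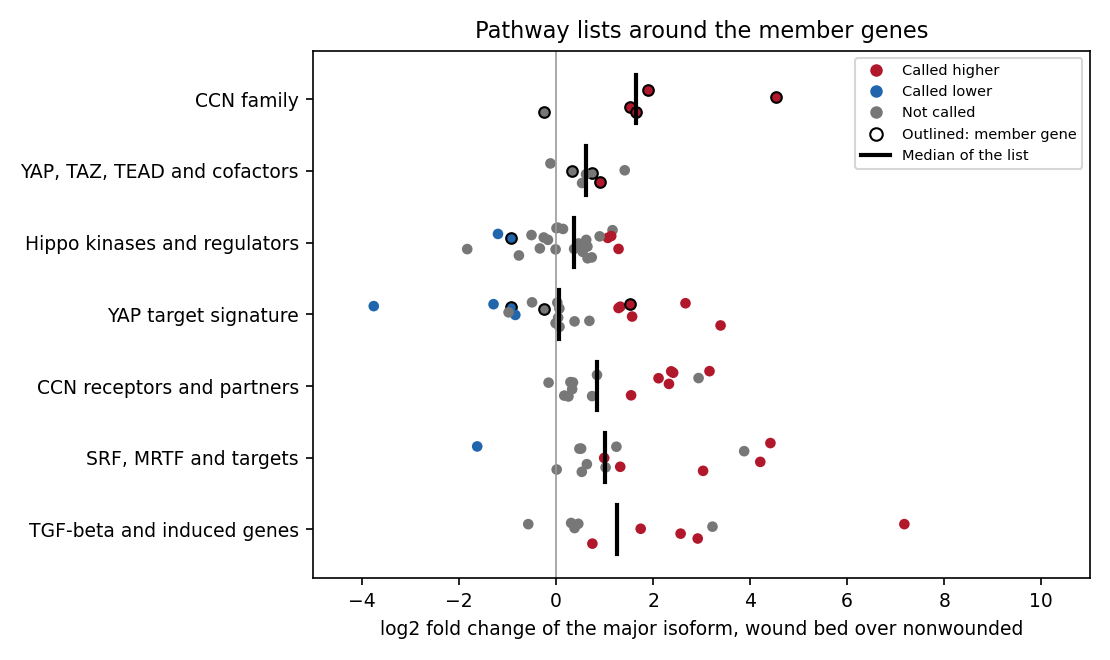
Horizontal axis, log2 ratio of wound bed to nonwounded FPKM for the major isoform of each gene that reached 1 FPKM in either group, in 7 gene lists (rows), with red points called higher, blue called lower, grey neither, black outlines for the member genes and a bar at the list's median. The CCN row has its median at 1.64 and the YAP target signature, members included, at 0.06 with calls on both sides of 0.

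Markers of other cells in the sort moved with the same columns. In bulk RNA, fewer cells of a type and less RNA per cell cannot be told apart. Macrophage and monocyte markers were called higher in 10 of 12 cases, with summed FPKM of 1163 in wound-bed APs and 372 in nonwounded APs, and Lyz2 was the most abundant in both groups. Among the called genes the log2 fold changes were highest for Cd14 (3.51), Ctss (3.32), Itgam (2.33, also in the receptor list) and Adgre1 (1.94). Neutrophil markers were called in 0 of 4 cases (adjusted p under 0.05 from Cuffdiff in the authors' deposited table, with 2 higher at an unadjusted p under 0.05), with sums of 105 in wound-bed APs and 2.83 in nonwounded APs, S100a9 the most abundant in wound-bed APs and S100a8 in nonwounded APs, and Elane listed at 0 in both groups. Keratinocyte markers were higher in 2 of 6 cases (34.5 in wound-bed APs and 21.4 in nonwounded APs, Krt14 the most abundant in wound-bed APs and Krt10 in nonwounded APs), with log2 fold changes of 3.98 for Krt1 and 1.65 for Krt14. At an unadjusted p under 0.05 from Cuffdiff, 3 were higher and 1 was lower. Krt5 (1.04) and Krt10 (0.16) had positive values and Krt15 (-1.59) and Krt17 (-0.71) negative ones, without a call. Markers of Schwann cells and nerve were higher in 1 of 3 cases, the adhesion gene Ncam1 (1.75), with sums of 6.49 in wound-bed APs and 6.65 in nonwounded APs, and Sox10 was listed at 0 in wound-bed APs.

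The remaining marker lists held calls in the lower direction. All 4 mast cell markers that reached 1 FPKM were lower (6.24 FPKM summed in wound-bed APs and 59.0 in nonwounded APs, Cma1 the most abundant in wound-bed APs and Mcpt4 in nonwounded APs), with log2 fold changes between -3.69 (Mcpt4) and -2.64 (Cpa3), Tpsb2 and Cma1 lying between. Kit, below 1 FPKM in both groups, was tested and not called (adjusted p = 0.108, Benjamini-Hochberg, from the authors' deposited table). Erythroid markers were lower in 5 of 6 (206 in wound-bed APs and 3746 in nonwounded APs, Hba-a1 the most abundant in both groups), among them Hbb-bs (-5.60), Hbb-b2 (-4.43), Alas2 (-4.16) and Hba-a1 (-4.01). Near-identical globin genes share reads, so their split is uncertain. Of 6 markers of mature adipocytes 2 were lower (8.21 in wound-bed APs and 134 in nonwounded APs, Car3 the most abundant in wound-bed APs and Cfd in nonwounded APs), Adipoq with -4.50 and Car3 with -3.32. Muscle markers were lower in 1 of 5 cases, the gene Mylpf, with 0 higher and 4 lower at an unadjusted p under 0.05 from Cuffdiff. Their sums were 9.25 in wound-bed APs and 92.9 in nonwounded APs. Tnnt3 was the most abundant in wound-bed APs and Mylpf in nonwounded APs. Whether muscle cells had a part in the low Ankrd1 values was not tested. Endothelial markers were lower in 1 of 6 cases, the gene Lyve1 (27.4 in wound-bed APs and 95.7 in nonwounded APs, Tek the most abundant in both groups). Tek alone summed to 18.4 FPKM in wound-bed APs and 83.1 in nonwounded APs. Its major isoform was not called, but another of its isoforms was (adjusted p = 0.000882, Benjamini-Hochberg, from the authors' deposited table). Kdr, Cdh5 and Pecam1 had log2 fold changes of 0.11, 0.58 and 1.06 and Cldn5 of -2.94, without a call. Smooth muscle and pericyte markers were lower in 1 of 5 cases, Kcnj8, which was also the most abundant in both groups. Their sums were 33.8 in wound-bed APs and 72.2 in nonwounded APs, of which Kcnj8 held 14.9 and 58.3. The median log2 fold change of this list was 0.25. Rgs5 (1.03), Abcc9 (0.79) and Mcam (0.25) had positive values and Des (-1.36) a negative one, without a call. Of 9 genes of sorted precursors, taken by their major isoforms, 0 were higher and 2 were lower (1 and 2 at an unadjusted p under 0.05). Ly6a was not called by its major isoform, but other isoforms of it were (adjusted p = 0.000882 and 0.00608, Benjamini-Hochberg, from the authors' deposited table). Summed over isoforms, Ly6a stood at 1576 FPKM in wound-bed APs and 2691 in nonwounded APs. Dpp4, a surface peptidase gene, fell by 1.66 and Cd24a, a gene of early adipocyte progenitors, fell by 1.41 on the log2 scale. The part of these cells in the values of the CCN and YAP pathway genes was not tested.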

How the data were processed

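Trizol and an RNEasy column served for RNA extraction and Illumina's Truseq mRNA protocol for the libraries, per the labels' protocols. TopHat2 2.0.2, Cuffdiff 2.0.2 and the build mm9 are named in the submitters' processing notes. The authors deposited 1 FPKM per isoform and group, pooled over the samples, and the p-value of the comparison. How deeply each sample was sequenced is unknown. Log2 fold changes were computed here as wound bed over nonwounded FPKM without a pseudocount (the deposited fold change column runs the other way and was not used). The deposited p-values of Cuffdiff were Benjamini-Hochberg adjusted over the 17775 tested isoforms, which at 0.05 gave the deposited yes or no for all 34535, and the adjustment was tested on simulated data. The other isoforms were not tested (16745), had too many fragments (13) or failed (2). No test of samples could be run on pooled values.

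Symbols were matched to current names by transcript through RefSeq. Although mm9 is named, the table's loci for the 10 genes lie within 713 bases of the GRCm38.p6 gene ends at both sides, so sequences were taken from GRCm38. Promoter windows came from RefSeq and exons from GENCODE M21. Members and lists were chosen with earlier results of these data known. From each list up to 4 called genes per direction are named by size of change if it reached 1 FPKM in either group, all measured genes of the YAP, TAZ and TEAD family, and the most abundant marker of each marker list. A gene that this rule names is not reported here. Lats1, Lats2, Itga5, Sdc4, Itgav, Itgb3, Itgb5, and the leading markers Krt10, S100a8, Cfd and Tnnt3 were named after their values were seen. The same holds for the uncalled markers Pecam1, Cdh5, Kdr, Cldn5, Rgs5, Abcc9, Mcam, Des, Kit, Krt5, Krt15 and Krt17. It also holds for Map4k4, Skil and the isoforms of Ly6a. Computations used Python 3.11.15, pandas 2.3.3 and numpy 2.4.6. Alternatives were adjusted p thresholds of 0.01 and 0.1, a minimum size of 1 for log2 fold changes, minimum levels of 1 and 5 FPKM, adjustment over isoforms that reached 1 FPKM, pseudocounts of 0.1 and 1, centring on the median, and sums over isoforms.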

Additional observations from a re-analysis of the deposited data

How the results depend on the processing

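No paired analysis was possible because the table holds 1 pooled value per group, and for the same reason no sample could be left out in turn. The count of member isoforms called higher was 5, and 4 with an adjusted p under 0.01 or a minimum log2 size of 1, where Tead1 was lost. The count called lower was 1 under the other alternatives but 0 at that minimum size, since Amotl2 stood at -0.93. Summing isoforms, which carries no test, gave log2 fold changes of 0.27 for Yap1, 0.62 for Wwtr1 and 1.06 for Tead1, against 0.74, 0.33 and 0.90 for their major isoforms. The untested log2 ratio of Ankrd1 was 6.92 without a pseudocount, 2.24 with a pseudocount of 0.1 and 0.47 with 1, so it is set by the pseudocount. No member changed sign under the pseudocounts, the centring on a median of -0.11 or the sums. Of the alternative values, counts included, 48 were rated as the same and 6 as moved. A count of 4 against 5 was rated as the same, and the fold changes rated as moved kept their sign. The log2 fold change of Wisp1 was 3.54 with a pseudocount of 1, against 4.53 without one, and that of Cyr61 was -0.14 after centring, against -0.25. The depth of the libraries is unknown, so what low values such as those of Ankrd1 can show is not known.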

Other observations

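Across all genes with a promoter window and a major isoform that reached 1 FPKM in either group, the letters GGAATG or CATTCC stood in at least 1 window of 15% of 733 genes called higher, 18.7% of 879 called lower and 14.3% of 8503 not called. In the YAP target signature 15 genes had a window and 7 of these held the letters. Of those 7, Ptpn14 was called higher and Amotl2 and Axl were called lower. Of the 8 without them, Myof, F3 and Gadd45a were called higher and Igfbp3 and Nt5e lower. These shares are descriptions of the letters in short windows, with no test.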
